A study of Triticum aestivum with 39 samples.

Results

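Transcript levels of the catalase gene CAT1 and of the glyoxalase gene lgul were followed over 13 tissues of wheat, Triticum aestivum cv. Chinese Spring. The probesets, sets of short probes that together measure 1 transcript, were found through the gene symbol or a synonym of it. The annotation paired 2 probesets with CAT1 and 2 with lgul, of 61290 probesets on the array, and all 4 passed the removal of probesets of unclear specificity, which retained 39564. Both genes were selected on their levels over the 13 tissues in these same arrays. These levels are therefore given as a description, without a test, and tests were applied only to other genes.

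Each tissue was represented by 3 biological replicates, and the RNA of each replicate by 1 array of the Wheat GeneChip, 39 in all. Coleoptile, root and embryo were taken from germinating seed, and root, crown and leaf from seedlings of about 10 cm. Flowering material comprised the immature inflorescence of 2 to 3 cm, and floral bracts, pistil and anthers before anthesis. Grain was sampled as whole caryopsis at 3 to 5 days after pollination (DAP) and as separate embryo and endosperm at 22 DAP. All plants were wild type, of 1 cultivar and without a treatment, and each collection pooled material of 10 plants or organs. The study describes growth with 16 h light at 22 °C and 8 h dark at 16 °C. The sample labels give this regime for all tissues except the seedling root, crown and leaf, where none is stated. The tissue labelled as the embryo of germinating seed matches the study's mesocotyl only by elimination.

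Catalases break hydrogen peroxide down to water and oxygen, chiefly in peroxisomes. In green leaves a large part of this peroxide comes from photorespiration, when glycolate that leaves the chloroplast is oxidized, while in seeds it also arises from the breakdown of fatty acids. The name lgul stands for lactoylglutathione lyase, also called glyoxalase I, which uses glutathione to remove methylglyoxal, a toxic by-product of glycolysis and of carbon fixation. Bread wheat is hexaploid, and a probeset can collect signal from several related gene copies, which were not told apart here.

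The values are signals on a linear scale, and levels are log2(signal + 16), given as mean ± SD over n = 3 arrays. As a measure of background, the 95th percentile of 64 reporter probesets, which target foreign genes, was taken on each array. It lay at a signal between 44.7 and 137.9, with a median of 76.3, and a signal below it is not clearly measured. The tissue labels were checked against known marker genes. Of the endosperm markers 6 of 7 probesets were highest in the endosperm, of the embryo markers 4 of 4 in the 22 DAP embryo, and the anther marker raftin1a was highest in anthers. Of the green leaf markers 15 of 25 were highest in the leaf, and most of the others were weak probesets of rbcl. On the 9 arrays of floral bracts, pistil and seedling root the polyadenylated control dap, which is spiked into a sample, had a level of 4.33 to 4.93, against 8.71 to 11.57 on the other 30. The level of 18S ribosomal RNA was also lower on these 9 arrays, at 5.10 to 6.15 against 7.26 to 12.92. In any comparison across these sets of arrays, tissue and set cannot be told apart.

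CAT1 transcript, measured by probeset Ta.442.1.S1_at, was abundant in seedling leaf and floral bracts, lower in endosperm and caryopsis, and near background in the other 9 tissues. In the leaf its signals were 20019, 13993 and 12803, a level of 13.90 ± 0.34. In bracts they were 9169, 4687 and 7725, a level of 12.76 ± 0.50. The 3 leaf arrays lay above all 36 other arrays, as for 3.97% of the retained probesets, and above the 3 bract arrays, as for 19.2%. The bract arrays lay above the 33 arrays of the remaining 11 tissues, as for 4.29%. Leaf had the highest mean in 12.9% of the retained probesets, with bracts next in 3.92%. Leaf exceeded bracts by 1.14 on the log2 scale, 2.21-fold, with a standard error of 0.40 for a difference of 2 tissue means, and the arrays of both overlapped only with scaling to the hybridization controls.

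**Figure D1:**
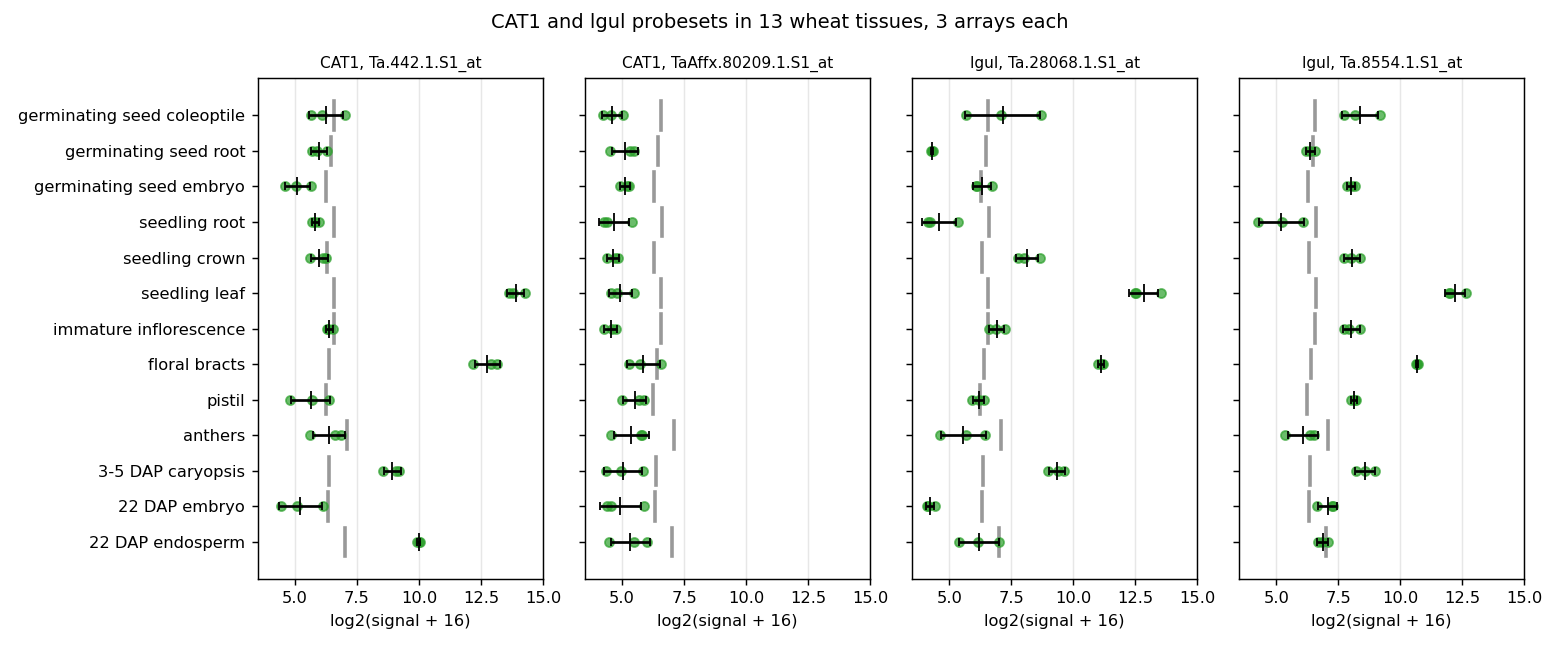
Level, log2(signal + 16), of each CAT1 and lgul probeset on the 3 arrays of each of 13 tissues (circles), with the mean and SD (black) and the mean background of the reporter probesets in that tissue (grey). In the 3 probesets that were measured above background, leaf was highest and bracts next, and CAT1 Ta.442.1.S1_at also stood clear of background in endosperm and caryopsis.

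The grain gave the second group of tissues with measurable CAT1. In the 22 DAP endosperm the signals were 948.0, 1007 and 1041, a level of 9.99 ± 0.07. In the caryopsis at 3 to 5 DAP they were 354.5, 517.3 and 566.7, a level of 8.93 ± 0.35. The arrays of these tissues did not overlap with each other, nor with those of bracts above them or those of the immature inflorescence below them, except that endosperm and caryopsis overlapped with arrays scaled to the hybridization controls. The order leaf, bracts, endosperm was found in 0.594% of the retained probesets and the order leaf, bracts, endosperm, caryopsis in 0.121%. These orders were taken from CAT1 itself. As with the other shares given here, many of the retained probesets are weak, so the share among clearly measured probesets may differ. Bracts exceeded endosperm by 2.78, and endosperm exceeded caryopsis by 1.06 on the log2 scale. Caryopsis was at least 4.62-fold higher than inflorescence, where 1 of 3 arrays was above background.

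Within the grain at 22 DAP, CAT1 was measured in the endosperm and not in the embryo. The embryo gave signals of 54.8, 5.34 and 17.4, all below the reporter background, against at least 948.0 in the endosperm. All 3 endosperm arrays were above all 3 embryo arrays, and the endosperm was at least 12.7-fold higher than the embryo background, as the size of the difference to the embryo signal itself depends on the offset. Of the retained probesets 25.6% also had their endosperm arrays above those of the embryo. Summed markers of the maturing embryo reached 12.34 to 12.97 in the endosperm samples against 16.46 to 16.64 in the embryo. Green leaf markers summed to 12.96 to 13.11 in the endosperm and to 10.04 to 10.30 in the embryo, and the part of either marker list in the CAT1 difference was not tested.

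In the young grain CAT1 was likewise higher than in the pistil. The pistil signals were 11.8, 35.7 and 67.8, 1 of them above background, and the caryopsis was at least 5.89-fold higher, with no overlap of arrays, as for 15.6% of the retained probesets. The pistil is one of the 3 tissues whose arrays lacked control signal, and the part of this in the difference was not tested.

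The other 9 tissues could not be ranked for CAT1. Their means ran from 6.39 ± 0.13 in the inflorescence and 6.37 ± 0.66 in anthers to 5.10 ± 0.52 in the embryo of germinating seed, and every neighbouring pair in this order overlapped. Single arrays exceeded the reporter background in coleoptile, crown, inflorescence and pistil, 1 in each, and none did in the other 5. Against the background in place of the weak signal, the leaf level was at least 113.2-fold (anthers) to at least 198.6-fold (embryo of germinating seed) higher than in these 9 tissues. Crown and seedling root overlapped, at 5.99 ± 0.34 and 5.82 ± 0.14, both near background.

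The second CAT1 probeset, TaAffx.80209.1.S1_at, showed none of this pattern. It stayed below the reporter background on all 39 arrays, with signals from 2.59 to 78.5 and a median of 14.8. Its leaf signals were 7.54, 11.3 and 28.0, a level of 4.93 ± 0.47, and its highest mean, 5.85 ± 0.66, was in bracts. All neighbouring tissues overlapped, and over the 13 tissue means the probesets of CAT1 had a Pearson correlation of 0.384 and a Spearman correlation of 0.033. Expression of CAT1 is therefore described from Ta.442.1.S1_at alone.

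Transcript of lgul was measured by both of its probesets and was again highest in leaf and next in bracts, but it remained measurable in more tissues than CAT1. With Ta.8554.1.S1_at, the probeset with the higher mean over all arrays, the leaf signals were 6474, 4011 and 4038, a level of 12.21 ± 0.39. In bracts they were 1658, 1614 and 1581, a level of 10.67 ± 0.03. Leaf exceeded bracts by 1.53, 2.90-fold, and bracts exceeded the next tissue, caryopsis, by 2.09, with no overlap at either step. The standard error of a difference was 0.35.

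Below bracts, 6 tissues had much the same level of this lgul probeset. Caryopsis gave 278.3, 490.3 and 360.8, a level of 8.58 ± 0.39, and coleoptile gave 273.8, 198.5 and 568.3, a level of 8.37 ± 0.74. Pistil (8.14 ± 0.11), crown (8.05 ± 0.33), embryo of germinating seed (8.02 ± 0.16) and inflorescence (8.02 ± 0.34) followed, and neighbours in this order overlapped. Caryopsis exceeded coleoptile by 0.21, less than the standard error, and coleoptile came before it without replicate 2. All 18 arrays of these 6 tissues were above the reporter background.

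A gap of 0.96 without overlap then separated the inflorescence from the 22 DAP embryo. The embryo gave 83.8, 136.2 and 141.3, a level of 7.06 ± 0.37, and all 3 of its arrays were above background. The endosperm gave 97.0, 121.2 and 85.6, a level of 6.86 ± 0.22, with 1 array above background. Endosperm minus embryo was -0.20 with overlap, whereas CAT1 separated these parts of the grain, but with scaling to the hybridization controls it was -1.12 without overlap. The lowest levels were 6.38 ± 0.17 in the root of germinating seed, 6.07 ± 0.62 in anthers and 5.20 ± 0.91 in seedling root, where the signals were 21.9, 3.37 and 51.9. The leaf level was at least 49.2-fold higher than the background of the seedling root arrays and at least 50.7-fold higher than that of the arrays of the germinating root.

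The other lgul probeset, Ta.28068.1.S1_at, had a steeper profile. Its leaf signals were 11781, 5874 and 5813, a level of 12.85 ± 0.58, and its bract signals were 2258, 2043 and 2350, a level of 11.12 ± 0.10. Caryopsis gave 495.7, 654.8 and 771.9, a level of 9.34 ± 0.31, and crown gave 383.9, 200.6 and 242.1, a level of 8.14 ± 0.46. These 4 tissues were in order without overlap, with steps of 1.73, 1.79 and 1.20 and a standard error of 0.50. From crown downwards all neighbours overlapped. In the 22 DAP embryo the signals were 5.45, 1.80 and 1.37, a level of 4.23 ± 0.17, although the first lgul probeset was above background there.

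Both lgul probesets had leaf, bracts and caryopsis as the highest 3 tissues, as for 0.816% of the retained probesets, although in Ta.8554.1.S1_at the place of caryopsis was not separate from coleoptile. The level of Ta.28068.1.S1_at minus that of Ta.8554.1.S1_at was 0.64 in leaf, 0.45 in bracts and 0.76 in caryopsis, but -1.95 in pistil, where 2 of 3 arrays of Ta.28068.1.S1_at were above background. In the germinating root and the 22 DAP embryo all arrays of Ta.28068.1.S1_at were below background, so no difference is given. Levels of different probesets depend on their probes, and their order within a tissue is not read here as a difference in transcript. The sign of this difference changed between tissues, and the reason was not tested. Over the 13 tissue means the Pearson correlation of the lgul probesets was 0.929 and the Spearman correlation 0.852. Without leaf and bracts these were 0.766 and 0.755 over 11 tissues. These points share the same arrays, and several are below background.

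Coleoptile was the tissue with the widest spread in Ta.28068.1.S1_at, with signals of 119.8, 34.8 and 403.8 and a level of 7.15 ± 1.53. Replicate 3 was highest in this probeset, in the other lgul probeset and in CAT1, where the coleoptile signals were 33.4, 52.5 and 112.0. The summed green leaf markers of the 3 coleoptile arrays had levels of 12.29, 10.98 and 13.78. The part of these marker transcripts in the spread was not tested. Coleoptile arrays were above those of the germinating root in both lgul probesets, as for 17.7% of the retained probesets, with 1 root array above background in Ta.8554.1.S1_at and 0 in Ta.28068.1.S1_at. Of the coleoptile arrays, 3 were above background in Ta.8554.1.S1_at and 2 in Ta.28068.1.S1_at.

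CAT1 and lgul both had leaf highest and bracts next, and they differed in the order of the grain tissues. Endosperm minus caryopsis was 1.06 in CAT1, which changed sign with scaling to the hybridization controls. It was -1.72 in lgul Ta.8554.1.S1_at, where 1 of 3 endosperm arrays was above background. In lgul Ta.28068.1.S1_at the endosperm was below background and the caryopsis was at least 4.99-fold higher. Endosperm arrays were above caryopsis arrays for 29.1% of the retained probesets and below them for 16.1%. Elsewhere CAT1 was too weak for such a comparison. Crown arrays were above seedling root arrays in both lgul probesets, as for 20% of the retained probesets, and by at least 2.75-fold and 2.93-fold, since the root was below background. The embryo of germinating seed was 0.96 higher than the 22 DAP embryo in lgul Ta.8554.1.S1_at, without overlap, as for 17.8%, while Ta.28068.1.S1_at was above background on 1 and 0 of the 3 arrays of these tissues. No difference between the genes was tested.

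**Figure D2:**
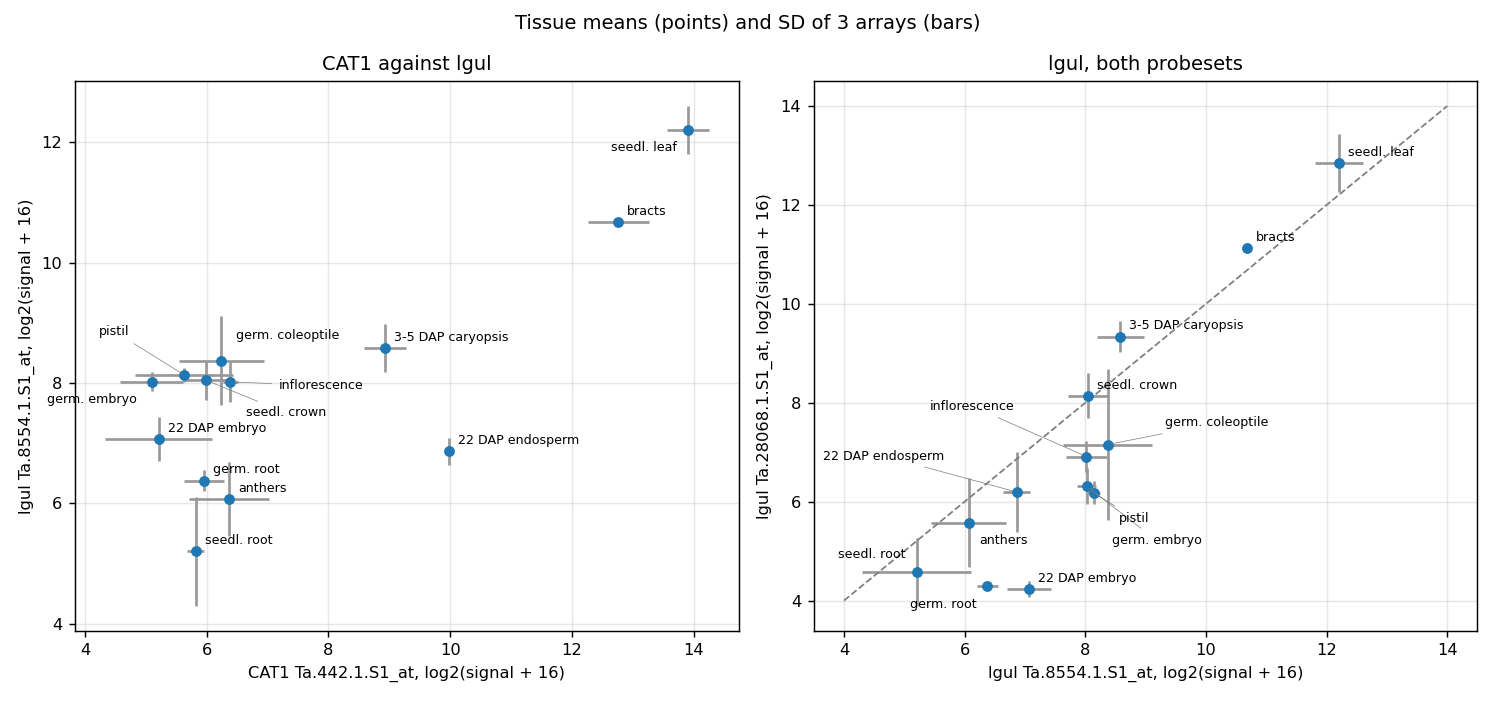
Tissue means of log2(signal + 16) with the SD of 3 arrays, CAT1 Ta.442.1.S1_at against lgul Ta.8554.1.S1_at (left) and both lgul probesets against each other (right, the dashed line marks equal values). Leaf and bracts are at the upper right in both, and the 22 DAP endosperm has high CAT1 (9.99) with low lgul (6.86).

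CAT1 was weak in 9 tissues, so a correlation of the genes over tissues reflects few measured points. Between CAT1 and lgul Ta.8554.1.S1_at the Pearson correlation was 0.759 and the Spearman correlation 0.445 over 13 tissues, and with lgul Ta.28068.1.S1_at they were 0.846 and 0.687. Without leaf and bracts most of the remaining CAT1 levels were at or below background, and no correlation is given.

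The replicates of leaf and bracts varied differently in the genes. Leaf replicate 1 was higher than the mean of replicates 2 and 3 by a factor of 1.49 in CAT1, 1.61 in lgul Ta.8554.1.S1_at and 2.02 in lgul Ta.28068.1.S1_at. On this array the hybridization controls, which are added in fixed amounts, were also higher, by 0.73 on the log2 scale. Without it the leaf still exceeded bracts by 0.95 in CAT1 and by 1.31 and 1.39 in lgul. Among the bract arrays the highest signal was 1.96 times the lowest in CAT1, but 1.05 and 1.15 times in the lgul probesets.

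Scaling was the processing choice that bore most on the CAT1 order. When arrays were scaled to the hybridization controls in place of the trimmed mean, leaf minus bracts fell to 0.23 in CAT1 with overlap of the arrays, and to 0.63 and 0.82 in lgul without overlap. The endosperm minus caryopsis difference of CAT1 changed sign, to -0.24, with overlap, and it was 0.41 when arrays were scaled to the same median. The hybridization controls had levels of 11.83 to 12.57 in leaf and 12.57 to 12.72 in endosperm, against 11.06 to 11.26 in bracts and 11.26 to 11.40 in caryopsis. Under that scaling the median over all retained probesets moved from 0.03 to -0.49 for leaf minus bracts and from 0.28 to -0.46 for endosperm minus caryopsis. These medians include many weak probesets, on which a scaling acts less because of the offset, and the difference to them is therefore not given.

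**Figure D3:**
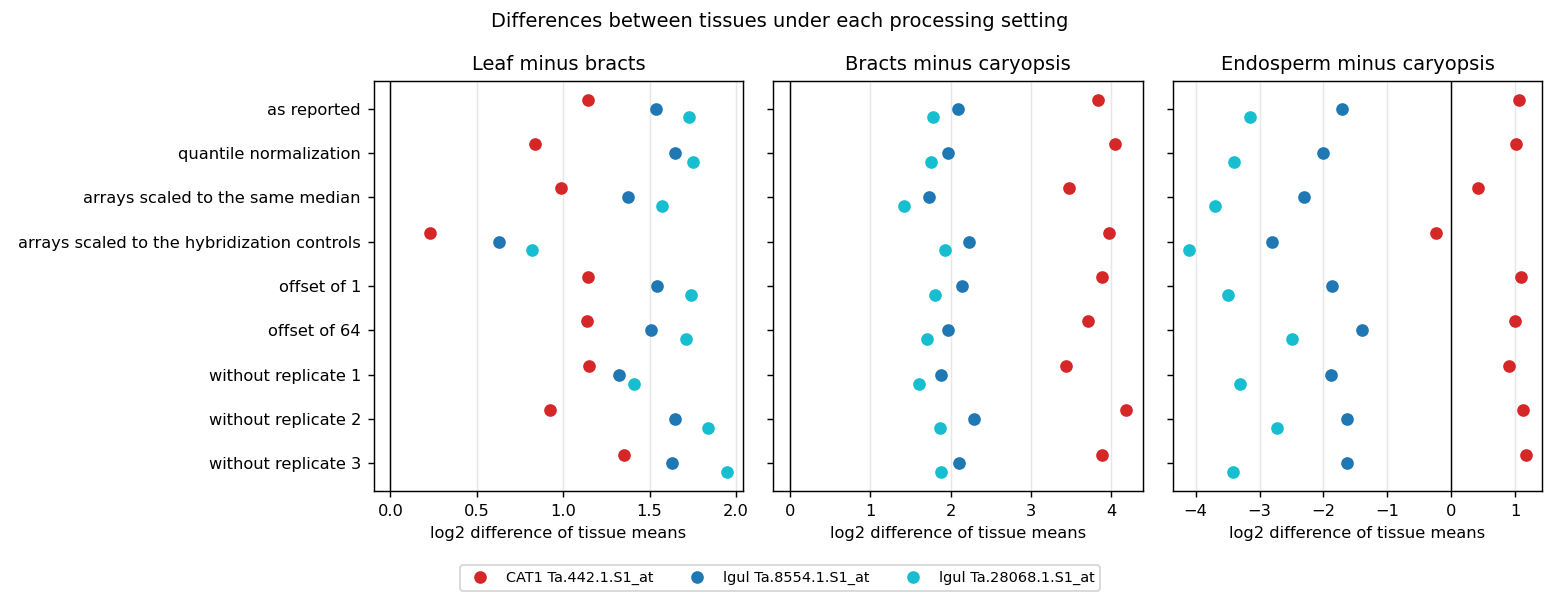
Difference of tissue means on the log2 scale (horizontal axis) for CAT1 Ta.442.1.S1_at and the lgul probesets under each processing setting (rows), for leaf minus bracts, bracts minus caryopsis and endosperm minus caryopsis. Scaling to the hybridization controls gave the smallest leaf minus bracts difference in each probeset (CAT1 0.23) and turned endosperm minus caryopsis negative in CAT1 (-0.24), while bracts remained above caryopsis throughout.

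The named genes with the profile most like CAT1, among 108 retained probesets with a gene name, were 4 probesets of rbcl, which encodes the large subunit of Rubisco, with Pearson correlations of 0.951, 0.948, 0.896 and 0.894 over 13 tissue means, and PRK, which encodes phosphoribulokinase, an enzyme of the Calvin cycle, with 0.913. These rbcl probesets were weak, with leaf levels of 6.38 to 8.81, the lowest of which is near background. CAT1 itself was near background in most tissues, so the correlations with it reflect few measured points. In all, 21 of the 108 probesets were of rbcl, 12 of them highest in leaf, and their correlations with CAT1 ran from -0.58 to 0.951 with a median of 0.762. PRK had levels of 15.57 ± 0.21 in leaf, 14.25 ± 0.07 in bracts, 11.95 ± 0.24 in caryopsis and 11.04 ± 0.09 in endosperm, so that like CAT1 it was measured in both grain tissues, but with caryopsis above endosperm. Among 711 probesets with any gene, LOC100037655 followed the nearest 2 rbcl probesets with 0.944. It too was weak, at 6.83 ± 0.31 in leaf, near background, and at 6.04 ± 0.16 in endosperm, below background. Among all genes, 137 retained probesets had a correlation above 0.9 with CAT1, and these values share the 39 arrays.

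The named probesets nearest to lgul Ta.8554.1.S1_at were those of Prx1 with 0.940 (Ta.6572.2.S1_at) and 0.905 (Ta.6572.1.S1_at), Trx-M, which encodes a thioredoxin of the plastid, with 0.930, 1 probeset of rbcl with 0.917 and TSA with 0.904. Another 2 probesets, with a locus number as name, were closer still, LOC100125744 with 0.977 and LOC542859 with 0.975. Prx1 Ta.6572.2.S1_at had levels of 13.75 ± 0.42 in leaf, 12.13 ± 0.11 in bracts and 11.09 ± 0.19 in caryopsis, and 7.02 ± 0.33 in endosperm. Like lgul and unlike CAT1 and PRK it was low in the endosperm. The other named neighbours of lgul did not all share this. In the endosperm Prx1 Ta.6572.1.S1_at was at 7.94 ± 0.31 and the rbcl probeset at 6.46 ± 0.40. Trx-M was at 9.48 ± 0.13 there and TSA at 13.34 ± 0.13. A correlation above 0.9 with lgul was found for 198 retained probesets.

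**Figure D4:**
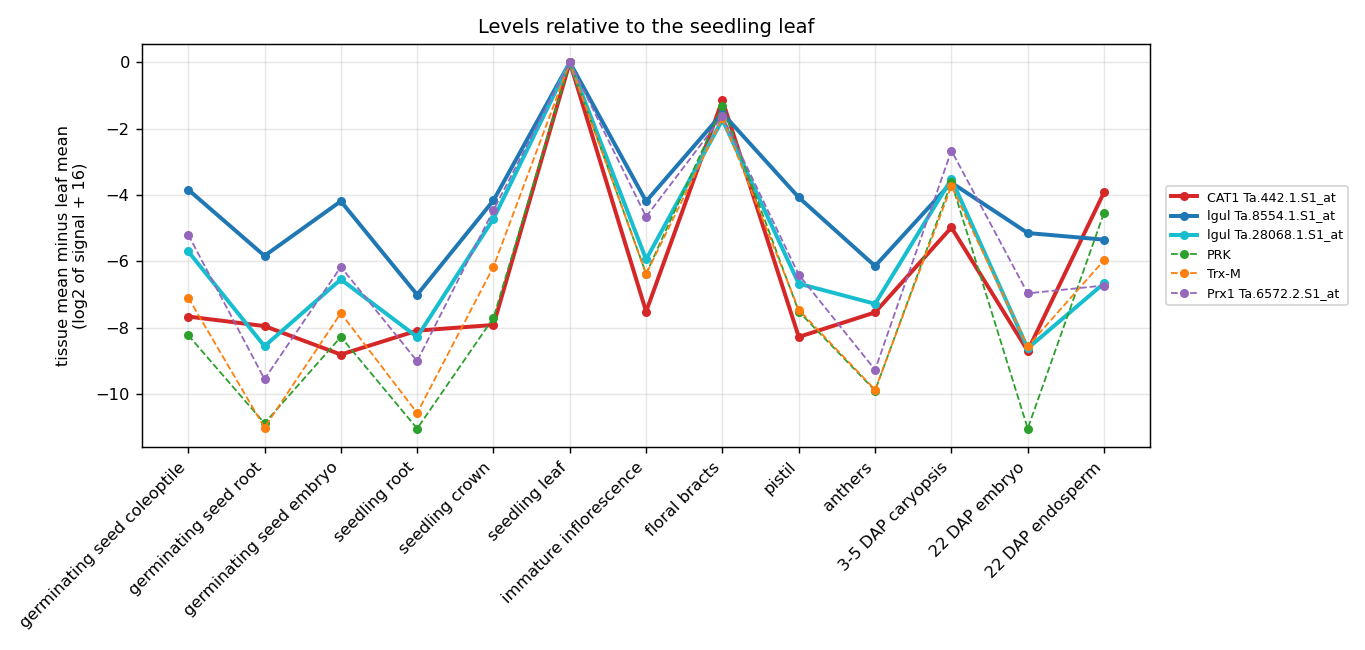
Tissue means of log2(signal + 16) minus the leaf mean of the same probeset, for CAT1, both lgul probesets, PRK, Trx-M and Prx1 in 13 tissues. All lines have leaf highest and bracts next, and CAT1 and PRK lie nearer to their leaf level in the 22 DAP endosperm than the other lines do.

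Summed green leaf markers followed a similar order of tissues. Their level was 17.17 to 17.52 in leaf, 16.04 to 16.34 in bracts and 14.68 to 15.09 in caryopsis, then 13.64 to 13.87 in the inflorescence and 12.96 to 13.11 in the endosperm, down to 9.78 to 10.00 in the germinating root. The inflorescence thus had more marker signal than the endosperm, while CAT1 was near background in the inflorescence, at 6.39, and at 9.99 in the endosperm. In whole tissues, more green cells and more transcript per cell cannot be told apart.

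Other genes of peroxide and glutathione metabolism were sought by name. The annotation gave symbols without descriptions, and only 7 retained probesets of 4 genes matched, none of them for photorespiration, peroxisomes or glycolysis. They were Prx1 (3 probesets), Trx-M, PER1, which encodes a peroxiredoxin of the seed, and GSTZ1 (2 probesets), which encodes a glutathione S-transferase of the zeta class. All 7 varied between tissues by the F test of limma at an adjusted p below 0.05, as did 70.8% of the retained probesets.

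Between seedling leaf and seedling root, Trx-M and all 3 Prx1 probesets were higher in the leaf, so that 4 of 7 probesets passed the test in this direction and 0 in the other. Of all retained probesets 14.2% were higher and 14.4% lower. Of the 4 probesets, 3 are of Prx1. Trx-M and Prx1 were also named above for profiles near that of lgul on these same arrays. The count and the list median therefore lend no independent support. Trx-M had a level of 15.45 ± 0.35 in leaf and 4.88 ± 0.88 in root, a difference of 10.57 with a standard error of 0.52 and an adjusted p of 1.87e-16 from limma. Prx1 was higher in leaf by 9.23, 9.01 and 2.66 in its 3 probesets (adjusted p from limma 2.17e-17, 1.24e-18 and 1.87e-05). GSTZ1, at 9.71 ± 0.15 and 8.90 ± 0.49 in Ta.237.1.S1_at, differed by 0.81 (adjusted p from limma 0.0138), below the size required, and by 0.40 in TaAffx.56524.1.S1_at (adjusted p from limma 0.248). PER1 differed by -0.19 (adjusted p from limma 0.874). The median difference was 2.66 over the list and 0.02 over all retained probesets, and the count was also 4 with the root of germinating seed, whose arrays had control signal, in place of the seedling root. Without seedling root replicate 2 it was 5.

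Between endosperm and embryo at 22 DAP, 1 of 7 probesets was higher in the endosperm and 0 were lower, against 16.3% and 12.5% of all retained probesets. Trx-M had a level of 9.48 ± 0.13 in endosperm and 6.89 ± 0.46 in embryo, a difference of 2.59 with an adjusted p of 0.000171 from limma. PER1 was high in both, at 14.31 ± 0.03 and 14.73 ± 0.11, and differed by -0.42 (adjusted p from limma 0.682). For Prx1 the differences were -0.84, 0.24 and -0.48 (adjusted p from limma 0.114, 0.648 and 0.446), and for GSTZ1 they were 0.27 and 0.02 (adjusted p from limma 0.445 and 0.963). The list median was 0.02 and that of all retained probesets 0.18. With arrays scaled to the hybridization controls, 1 was higher and 2 lower.

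**Figure D5:**
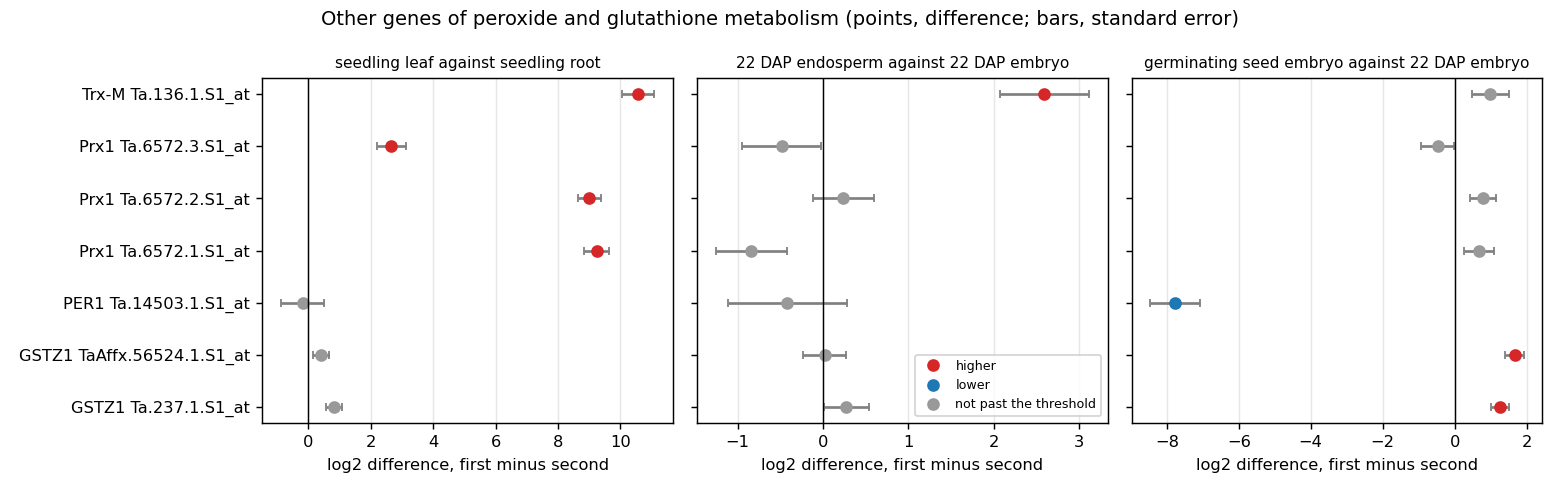
Difference of tissue means on the log2 scale, first minus second tissue, with its standard error, for the 7 other probesets of peroxide and glutathione metabolism in 3 comparisons. Points are coloured by whether they passed an adjusted p of 0.05 and a difference of 1, with Trx-M at 10.57 in leaf against root and PER1 at -7.77 in germinating against 22 DAP embryo.

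Between the embryo of germinating seed and the 22 DAP embryo, 2 of 7 probesets were higher in the former and 1 was lower, against 8.3% and 6.98% of all retained probesets. GSTZ1 was higher by 1.67 in TaAffx.56524.1.S1_at (10.68 ± 0.17 and 9.01 ± 0.10, adjusted p from limma 5.78e-06) and by 1.27 in Ta.237.1.S1_at (adjusted p from limma 0.000353). The lower probeset was that of PER1, with -7.77 and an adjusted p of 2.34e-10 from limma. Its level was 6.96 ± 0.70 in the germinating tissue against 14.73 ± 0.11 at 22 DAP. By elimination the germinating tissue would be the mesocotyl of the study, so these values are not read as a change of the embryo over time. Trx-M, at 7.89 ± 0.62 and 6.89 ± 0.46, did not pass, with a difference of 0.998 (adjusted p from limma 0.201), nor did Prx1, with 0.67, 0.80 and -0.47 (adjusted p from limma 0.299, 0.118 and 0.567). The median was 0.80 over the list and -0.03 over all retained probesets. In this comparison lgul was also higher in the embryo of germinating seed, as given above, and CAT1 was below background in both.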

How the data were processed

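The intensities, 1 per probeset and array, are MAS5 signals on a linear scale as deposited. The authors scaled each array to a 2% trimmed mean between 500.2 and 500.4, and the version of MAS5 is not given in the sources used here. The study's own analysis used RMA values, which were not used here. Median signals of the retained probesets were 39.2 to 68.6, and 3 arrays per tissue limit the precision.

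Left out were 111 controls, 64 reporters and all probesets ending in .A1, _a_at, _x_at or _s_at. Probesets not clearly anchored to the tail end of a transcript, which the study also left out, were not removed for that reason. A gene was paired with 1273 of 61115 probesets, 200 of them with a name, and 1272 identifiers matched the RefSeq gene table (IWGSC CS RefSeq v2.1). One mean per tissue was fitted to log2(signal + 16) over all 39 arrays in limma 3.58.1 (R 4.3.3), with Benjamini-Hochberg adjustment over 39564 probesets. A call needed an adjusted p below 0.05 and a difference of at least 1. Fold values are of signal + 16. For "at least" folds, the background of each array replaced any weaker signal in the lower tissue. The fits were tested on simulated data, where the contrast of seedling leaf against seedling root found 48% of 100 changes of 1.5 and 99% of 100 changes of 3. A difference that did not pass is therefore not shown to be absent.

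The members and lists were chosen with earlier results of these data known. Named were all probesets of both genes, the 5 nearest named and 3 nearest other probesets to the leading probeset of each by Pearson's correlation of tissue means, and the 2 largest and 2 smallest list members per comparison. The remaining list values were named after their values were seen. The alternatives were quantile normalization, scaling to the median or to the hybridization controls, offsets of 1 and 64, other probeset filters, limma's trend and robust options, a replicate block, a fit to the compared tissues alone, and leaving out arrays. Leaving out leaf replicate 1 for the members was added after seeing the data. Figures were drawn with matplotlib 3.10.9 under Python 3.11.15, from tables made with numpy 2.4.6 and pandas 2.3.3.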

Additional observations from a re-analysis of the deposited data

How the results depend on the processing

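The highest minus lowest tissue mean was 8.81 for CAT1 Ta.442.1.S1_at and 7.01 for lgul Ta.8554.1.S1_at. Scaled to the hybridization controls these were 8.06 and 6.26, with an offset of 1 they were 9.73 and 8.08, and with an offset of 64 they were 7.53 and 5.77. Leaving out each replicate number in turn gave 8.79 to 9.15 for CAT1 and 6.66 to 7.56 for lgul. The endosperm minus caryopsis difference of CAT1 changed from 1.06 to -0.24 with scaling to the hybridization controls, and the cause was not tested. Leaf first and bracts next held for CAT1 Ta.442.1.S1_at and both lgul probesets under every scaling, offset and left-out replicate number.

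In the comparison of endosperm and embryo at 22 DAP, 1 list probeset passed. This was 3 with scaling to the hybridization controls, 2 with scaling to the same median, and 2 of 10 when all probesets except controls and reporters were used. Of the values for the list, 67 stayed within 1.5 times the reported count and these 3 did not.

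Same-numbered replicates of different tissues showed no shared deviation, with 0 of 234 pairs of same-numbered arrays above a correlation of 0.1, and were not treated as paired. This does not show whether same-numbered samples were collected or processed together. The counts were the same with the replicate number as a block as without it. They were 4 for leaf with root, 1 for endosperm with embryo, 3 between the tissues labelled as embryo, and 7 in the F test. Signals under the reporter background limit the ranking of low tissues, and for these the size of a difference depends on the offset.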
